A study of Mus musculus with 2 samples.

Results

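The antiviral interferon-stimulated genes described here are 10 genes chosen by symbol: Ifit1, Ifit2, Ifit3, Isg15, Rsad2, Cmpk2, Mx1, Mx2, Oasl1 and Usp18. All 10 were found among the 55450 annotated genes of the gene tables. The rule that chose them uses symbols and not levels, though earlier results of these data were known when they were chosen. The samples were primary bone marrow-derived macrophages of the mouse strain C57BL/6J that had been stimulated for 25 min with 100 ng/ml of lipid A, the TLR4-binding moiety of bacterial endotoxin. RNA of the nucleoplasmic fraction, which another label calls nuclear, was depleted of ribosomal RNA and sequenced as total RNA. The 2 libraries form 1 group and are named replicate 1 and replicate 2. The labels give 500 ng of starting nucleic acid for replicate 1 and 1 µg for replicate 2, no age or sex, and 1 shared donor entry. The SDs therefore measure the spread between these libraries, which may be technical. Untreated cells were not analysed here, so the values are levels after stimulation and show no induction.

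Interferon-stimulated genes encode proteins that block steps of viral infection. In macrophages, TLR4 can signal through the adaptor TRIF and the kinase TBK1 to the transcription factor IRF3, which drives interferon-β. Secreted interferon-β binds the receptor IFNAR1/IFNAR2, and signalling through STAT2 and IRF9 then acts on interferon-stimulated response elements in the promoters of these genes, some of which IRF3 can also drive directly. Macrophages are also known for a tonic interferon signal that keeps such genes partly on without infection.

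Sequences before the gene starts are shown first because they carry the response element that names this gene class. RefSeq promoter windows (build GRCm38.p6, the coordinates of mm10) were matched by symbol for 7 of the 10 genes, and those of Mx1, Mx2 and Usp18 were not matched. The core of the element was searched as GAAANNGAAA on both strands, with overlapping matches counted, in the 250 bases before each start. It was found for Isg15, Rsad2, Ifit1 and Ifit3, and not for Ifit2, Cmpk2 or Oasl1. It occurred in 2.98% of 32851 windows of this length and for 3.46% of 27025 genes, and 0.18% of the windows held at least 2 matches. A match describes the letters only. Words that differ by a letter and bases farther from a start were not searched, so a gene without a match may still carry an element. In the lines below the bases run 5′ to 3′ along the gene's own strand, capitals mark the matches, and a match on the opposite strand reads TTTC where the first reads GAAA. Ifit3b, a near copy of Ifit3, is shown beside it.
Isg15: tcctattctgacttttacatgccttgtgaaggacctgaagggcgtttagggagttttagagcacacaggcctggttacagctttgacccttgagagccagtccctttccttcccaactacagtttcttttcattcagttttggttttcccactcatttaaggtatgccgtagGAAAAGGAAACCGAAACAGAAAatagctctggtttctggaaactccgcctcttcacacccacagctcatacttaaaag
Rsad2: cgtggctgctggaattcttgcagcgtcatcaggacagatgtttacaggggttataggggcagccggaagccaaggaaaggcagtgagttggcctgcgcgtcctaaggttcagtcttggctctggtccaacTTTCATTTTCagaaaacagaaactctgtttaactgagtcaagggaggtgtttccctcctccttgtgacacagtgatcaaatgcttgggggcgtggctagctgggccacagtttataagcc
Ifit3: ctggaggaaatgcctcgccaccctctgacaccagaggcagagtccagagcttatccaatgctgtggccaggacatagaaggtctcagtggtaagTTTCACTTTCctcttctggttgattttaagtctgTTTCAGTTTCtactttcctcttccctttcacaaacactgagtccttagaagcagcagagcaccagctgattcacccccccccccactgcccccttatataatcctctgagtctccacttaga
Ifit3b: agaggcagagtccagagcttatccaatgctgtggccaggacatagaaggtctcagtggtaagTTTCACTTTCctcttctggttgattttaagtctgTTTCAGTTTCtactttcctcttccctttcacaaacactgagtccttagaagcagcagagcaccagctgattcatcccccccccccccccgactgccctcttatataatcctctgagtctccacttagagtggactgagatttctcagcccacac
Ifit1 and Ifit1bl2: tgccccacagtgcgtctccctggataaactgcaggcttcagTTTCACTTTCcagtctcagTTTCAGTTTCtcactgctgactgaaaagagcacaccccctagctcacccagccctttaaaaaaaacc

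The Isg15 stretch lies at chr4:156200819-156201068 on the minus strand. Its 3 matches overlap one another and begin 78, 72 and 66 bases before the RefSeq start. The Rsad2 stretch lies at chr12:26456453-26456702 on the minus strand, with 1 match that begins 120 bases before the start. The Ifit3 stretch (chr19:34583279-34583528, plus strand) has its 2 matches 156 and 122 bases before the start. The Ifit3b stretch (chr19:34607707-34607956, plus strand) holds the same 2 matched words, at 188 and 154 bases. The last stretch (chr19:34640744-34640870, shown along the plus strand) is the whole of the 127 bases between Ifit1 and Ifit1bl2, which point away from each other. Both genes therefore share the same pair of matches. The matches begin 104 and 85 bases before the RefSeq start of Ifit1 (chr19:34640889), which lies past the end of the printed stretch. From the RefSeq start of Ifit1bl2 they lie 51 and 70 bases away.

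In the gene tables, replicate 1 had 13493323 expected counts over annotated genes and replicate 2 had 17914680. A floor of 3 counts, taken as an approximate upper limit for a gene with no count, was 0.222 and 0.167 CPM. CPM is the expected count scaled to a library of 1000000 counts. The 10 genes together took 12265 and 19238 of these counts, or 0.0909% and 0.107%. Levels are in TPM, a scale per transcript length that lets genes be set beside each other. All 8 macrophage markers were at 1 TPM or more in both libraries, with a median log2(TPM + 1) of 8.25 ± 0.0949 (SD, n = 2), and Csf1r was at 763 and 520 TPM. Plasmacytoid dendritic cells are strong interferon producers. Of their 4 markers Tcf4 was at 79.7 ± 18.9 TPM, Ccr9 at 2.61 and 1.84, Siglech at 1.13 and 0.43, and Ly6d at 0 counts, so the summed level of 96.8 and 68.6 TPM was nearly all Tcf4. The summed markers of conventional dendritic cells, neutrophils, T and NK cells, B cells and fibroblasts were at most 3.28 TPM in a library of the gene tables, where Ly6g and Cd3e were at 0 counts. The alignment-free tables are a second quantification, made from the reads and an index. There the T and NK cell markers summed to 8.91 and 1.12 TPM, nearly all from Cd3d at 8.72 and 1.10. The part of other cells in the levels below was not tested. In bulk RNA, fewer cells of a type and less RNA per cell cannot be told apart.

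All 10 antiviral genes were present in both libraries at 1 TPM or more in the gene tables, and all 10 also at 5 TPM or more there. In the alignment-free tables all 10 reached 1 TPM and 6 reached 5 TPM in both libraries, since replicate 2 had 1.33 TPM for Ifit1, 1.92 for Oasl1, 2.06 for Usp18 and 2.71 for Isg15. The share of all genes past these minimums in the alignment-free tables is not given here, so those counts stand without a background. In the gene tables, 44.6% of all protein-coding genes reached 1 TPM in both libraries and 28.7% reached 5 TPM, and of all annotated genes 22.5% reached 1 TPM and 12.8% reached 5 TPM. At a minimum of 10 TPM, 6 of the 10 passed in both libraries, against 19.0% of protein-coding genes and 8.28% of all annotated genes. The levels ran from 8.36 TPM for Ifit1 to 99.9 TPM for Rsad2 as means of both libraries. The median of log2(TPM + 1) over the 10 genes was 4.48 in replicate 1 and 4.74 in replicate 2, a mean of 4.61 ± 0.181 (SD, n = 2). Over all protein-coding genes it was 0.68 ± 0.216.

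**Figure D1:**
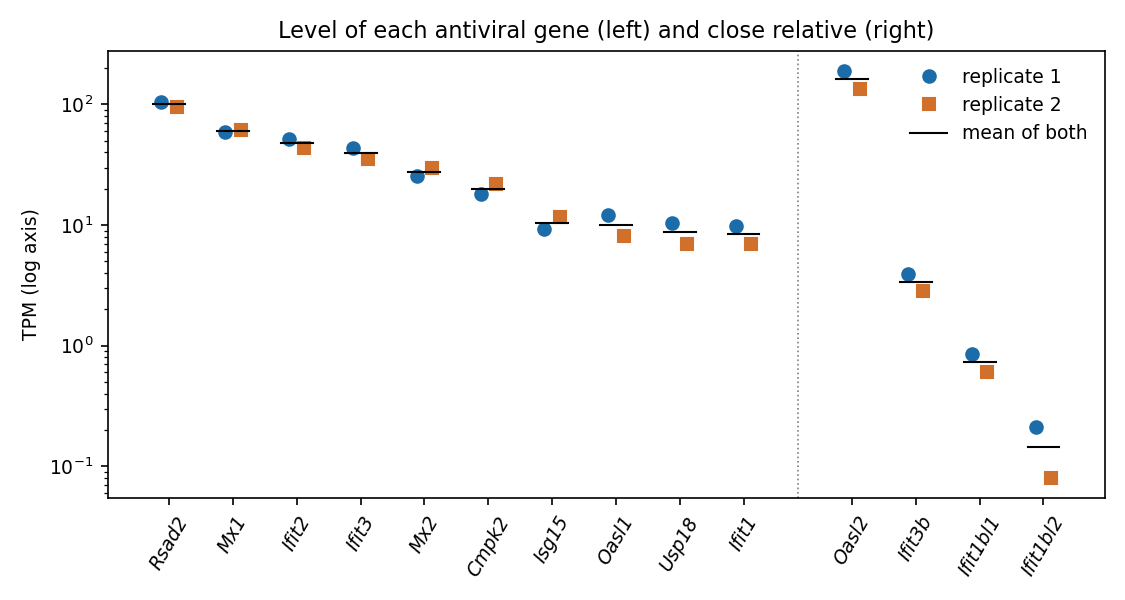
TPM of each antiviral gene and of 4 close relatives on a log axis, with circles for replicate 1, squares for replicate 2 and a line at the mean of both. Rsad2 lies highest of the 10 genes at 105 and 95.3 TPM, the 4 lowest genes overlap between 6.92 and 12.1 TPM, and Oasl2 among the relatives lies above all of them.

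Rsad2 and Cmpk2 are neighbours on chromosome 12 and act on nucleotides. Rsad2 encodes viperin, a radical SAM enzyme that makes a chain-terminating form of CTP, and Cmpk2 encodes a mitochondrial nucleotide kinase that can supply CTP for it. Rsad2 (12:26442746-26456452, minus strand, mm10) had 5146 and 7995 expected counts in replicates 1 and 2, which is 105 and 95.3 TPM (99.9 ± 6.59). It lay above 98.2% of protein-coding genes, and both of its libraries were above every library of the other 9 genes. Cmpk2 (12:26469204-26479837, plus strand) had 713 and 1521 counts and 18.0 and 22.0 TPM (20.0 ± 2.88), the sixth level of the 10. The genes start 12751 bases apart and are transcribed away from each other. Rsad2 was 5.82-fold higher than Cmpk2 in replicate 1 and 4.33-fold higher in replicate 2. These folds were 5.60 and 3.91 in the alignment-free tables, so the pair differed in the same direction in each library by both quantifications.

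The Ifit genes encode tetratricopeptide repeat proteins that bind viral or foreign RNA and limit its translation. They form a cluster on chromosome 19 that spans 99316 bases from Ifit2 to Ifit1. Ifit2 (19:34550694-34576419, plus strand) had 2551 and 3629 counts and 51.8 and 43.5 TPM (47.6 ± 5.83). Ifit3 (19:34583531-34588731, plus strand) had 904 and 1276 counts and 43.2 and 35.6 TPM (39.4 ± 5.36). Ifit1 (19:34640871-34650009, plus strand), which recognises RNA with an unmethylated cap, had 327 and 393 counts and 9.79 and 6.92 TPM (8.36 ± 2.03). Within the cluster the levels were therefore unequal, and Ifit1 was the lowest of the 10 genes by mean. Ifit2 was 5.29-fold and 6.29-fold higher than Ifit1, and Ifit3 was 4.41-fold and 5.15-fold higher than Ifit1. Ifit2 and Ifit3 differed by 1.20-fold and 1.22-fold within the libraries, and the lower library of Ifit2 was just above the higher one of Ifit3.

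Between these genes lie 3 relatives whose levels were much lower. Ifit3b (19:34607970-34613401) had 96.2 and 119 counts and 3.94 and 2.85 TPM. Ifit3 was 11.0-fold and 12.5-fold higher than Ifit3b, or 6.28-fold and 9.55-fold in the alignment-free tables. The printed stretches before both genes hold the same matched words. Their coding sequences have 99.1% identical bases over 1209 bases with no gaps. Of the 31-base words in the Ifit3 transcript, 61.8% also occur in Ifit3b, so the quantifier had to divide many reads between them and the split is uncertain. Ifit1bl1 was at 0.85 and 0.61 TPM, on 23 and 28 counts. Ifit1bl2, which shares the 127 bases with Ifit1, was at 0.21 and 0.08 TPM on 9.02 and 6.05 counts. The coding sequences of Ifit1bl1 and Ifit1bl2 have 78.6% and 78.1% identical aligned bases with Ifit1, and 10.8% of the 31-base words of Ifit1 occur in other genes. Ifit2 shares no such word with another gene, so its counts carry no such doubt.

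**Figure D2:**
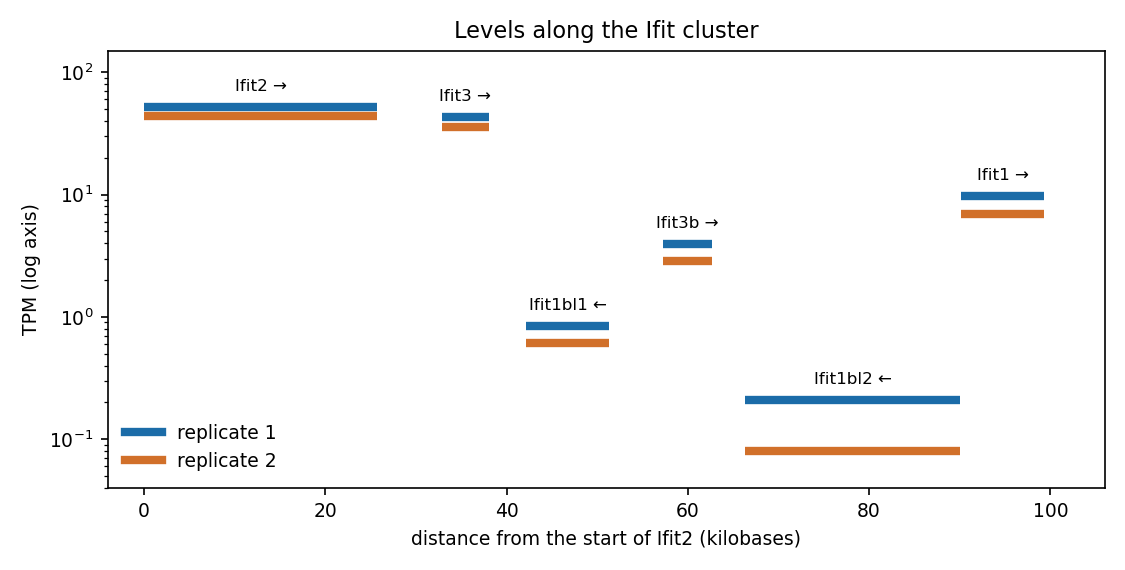
Levels along the Ifit cluster: each bar spans one gene, the horizontal axis is the distance from the start of Ifit2 in kilobases, and the height is TPM on a log axis in each replicate, with an arrow for the direction of transcription. Ifit2 and Ifit3 at the left end lie between 35.6 and 51.8 TPM, Ifit1 at the right end at 6.92 and 9.79 TPM, and the 3 relatives between them at 3.94 TPM or less.

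Mx1 and Mx2 encode dynamin-like GTPases that bind viral nucleoprotein complexes. The genes lie on chromosome 16, 72400 bases apart and on opposite strands. Inbred laboratory mice, C57BL/6 among them, are known to carry defective alleles of both. Mx1 (16:97447035-97462907, minus strand) had 1622 and 2673 counts and 59.6 and 61.4 TPM (60.5 ± 1.24), the second level of the 10. Mx2 (16:97535308-97560900, plus strand) had 570 and 1154 counts and 25.4 and 30.0 TPM (27.7 ± 3.25), the fifth level. Mx1 was 2.35-fold and 2.05-fold higher than Mx2 in replicates 1 and 2, and 2.24-fold and 2.18-fold in the alignment-free tables. Their coding sequences have 82.1% identical aligned bases, and 8.67% of the 31-base words of Mx1 and 7.96% of those of Mx2 occur in other genes, mostly in each other. GENCODE M21 annotates Mx1 as protein-coding and Mx2 as a polymorphic pseudogene, and RefSeq lists both as transcribed pseudogenes.

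The transcripts of Mx1 and Mx2 that took the counts were mostly not those annotated as coding a full protein. For Mx1, 3 transcripts annotated for nonsense-mediated decay, the pathway that degrades mRNA with an early stop, held 75.2% ± 4.42 of its expected counts, and 60.2% ± 2.00 in the alignment-free tables. Mx1-205 led, with 47.8% and 39.1% of the gene's TPM. In the alignment-free tables Mx1-203, which is of the same class, led with 30.5% and 28.1%. The model with the longest coding part, Mx1-201 (1881 coding bases in 15 exons), held 0.23% and 0.29% of TPM, against 13.5% and 14.8% in the alignment-free tables. The class of most Mx1 counts was thus the same in both quantifications, while the share of single transcripts was not.

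For Mx2 the counts fell on the pseudogene models. Mx2-202 and Mx2-204, both annotated as polymorphic pseudogene, held 92.0% ± 0.272 of its expected counts. The protein-coding model Mx2-201 had 0 counts in both libraries and in both quantifications. Mx2-202 and Mx2-201 each have 14 exons and differ, within their shared ends, at 1 junction of the coding part. The lines below show that junction from the GENCODE transcripts, 5′ to 3′ on the plus strand, because it separates the model with most of the counts from the model with none. Capitals mark the bases that only that model uses, with 30 bases on each side.
Mx2-202: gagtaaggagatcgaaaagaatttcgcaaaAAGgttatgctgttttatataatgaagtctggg
Mx2-201: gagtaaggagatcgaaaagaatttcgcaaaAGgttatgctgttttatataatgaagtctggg
The last base before the intron is 16:97552066 and the first after it 16:97555961 in Mx2-202, and 97552063 and 97555959 in Mx2-201. Mx2-202 thus has 3 bases of its own and Mx2-201 has 2. A read over this junction can tell the models apart. How many reads crossed it is not in the tables used here.

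Isg15 and Usp18 act on one modification. Isg15 encodes a ubiquitin-like protein that is joined to other proteins, and Usp18 encodes the protease that removes it and that also dampens signalling from IFNAR2. Isg15 (4:156199424-156200818, minus strand) is short, and its 9.33 and 11.6 TPM (10.5 ± 1.58) rested on 69 and 152 counts, the fewest of the 10 genes. The interval that the authors' quantifier gave around its posterior mean ran from 6.70 to 10.7 TPM in replicate 1 and from 9.35 to 12.9 TPM in replicate 2. These intervals overlap. Usp18 (6:121245906-121270917, plus strand) had 178 and 209 counts and 10.4 and 6.99 TPM (8.72 ± 2.44). Usp18 was 1.12-fold higher than Isg15 in replicate 1, and its ratio to Isg15 was 0.604 in replicate 2, so their order was not the same in the libraries. Of the 31-base words of Isg15, 13.1% occur in other genes, most of them in the processed pseudogene AC151275.1, which had 2 and 3 counts. All 5 genes for ISG15 conjugation were at 5 TPM or more in both libraries. The activating enzyme Uba7 was at 79.2 and 74.7 TPM, the conjugating enzyme Ube2l6 at 13.1 and 7.12, and the ligases Herc6 at 42.1 and 32.4, Arih1 at 35.6 and 26.1 and Trim25 at 202 and 135. Each of them but Ube2l6 was above both Isg15 and Usp18 in both libraries.

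Oasl1 encodes a protein related to oligoadenylate synthetases that is known to hold back translation of Irf7 in the mouse. Oasl1 (5:114923240-114937915, plus strand) had 185 and 236 counts and 12.1 and 8.07 TPM (10.1 ± 2.86). Its neighbour Oasl2 (5:114896936-114912234, plus strand), a relative with oligoadenylate synthetase activity, ends 11005 bases before it and had 3936 and 4527 counts and 189 and 134 TPM (162 ± 39.1). Oasl2 was 15.6-fold and 16.6-fold higher than Oasl1, and 14.6-fold and 14.7-fold in the alignment-free tables. It was above each of the 10 genes in both libraries. The coding sequences of Oasl1 and Oasl2 have 64.6% identical aligned bases, and 0.409% of the 31-base words of Oasl1 occur in another gene. The antisense gene Gm13822 overlaps Oasl1 and had 0 and 2 counts, and Gm44148 overlaps Usp18 on the other strand and had 0 counts in both. Reads of overlapping genes could not be told apart without strand.

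In the order of the means, Rsad2 was followed by Mx1, Ifit2, Ifit3, Mx2, Cmpk2, Isg15, Oasl1, Usp18 and Ifit1. Of the 9 neighbouring pairs in this order, the first 6 were separated, in that both libraries of the higher gene were above both of the lower. The place of Mx1 above Ifit2 rested partly on 2 short transcripts, Mx1-206 and Mx1-208, of 409 and 352 bases. They held 18.1% and 18.4% of the TPM of Mx1 in replicates 1 and 2, but 1.45% and 1.88% of its counts. The values of Isg15 and Oasl1, of Oasl1 and Usp18, and of Usp18 and Ifit1 overlapped, so these 4 genes are not ordered beyond their spread. Isg15 was the lowest of the 10 in replicate 1 and the seventh in replicate 2, and the other 9 kept 1 order in both libraries. The alignment-free tables gave the same order of means except that Mx2 stood above Ifit3, but only 1 of the 9 pairs was separated there. TPM there was lower in replicate 2 for each of the 10 genes, so values can overlap even where the order within each library held. Mx1 stood above Ifit2 in both libraries (42.22 and 18.15 against 22.35 and 7.86 TPM). Other pairs changed places, such as Ifit2 and Mx2, the latter at 18.81 and 8.33 TPM. By CPM, which is not per length, the order was Rsad2, Ifit2, Mx1, Ifit3, Cmpk2, Mx2, Ifit1, Oasl1, Usp18 and Isg15. The genes with a core match in the printed stretches (Rsad2, Ifit3, Isg15 and Ifit1, from 8.36 to 99.9 TPM) overlapped in level with those with a window and no match (Ifit2, Cmpk2 and Oasl1, from 10.1 to 47.6 TPM).

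Nuclear RNA holds unspliced and partly spliced transcripts, so the annotated class of the counts is given for the genes with several transcripts. In the gene tables all counts of Ifit2, which has 2 annotated transcripts, fell on the coding Ifit2-201. Retained-intron transcripts are annotated for 5 of the 10 genes: Cmpk2, Mx1, Mx2, Oasl1 and Usp18. Cmpk2 had the largest share of its counts in them, 43.3% in replicate 1 and 46.7% in replicate 2 (45.0% ± 2.41), nearly all in Cmpk2-204. The alignment-free tables gave 42.1% and 45.0%. For Oasl1 the share was 18.5% and 18.4%, for Usp18 7.71% and 6.57%, for Mx1 1.45% and 1.88%, and for Mx2 0.609% and 2.52%. The share of Cmpk2 was thus above those of the other 4 genes in both libraries. The relative Oasl2 had 40.0% and 45.3% of its counts in such transcripts.

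Over the 10 genes together, 3.77% ± 0.901 of the counts fell on retained-intron transcripts, against 15.6% ± 0.677 over all protein-coding genes. The 5 genes with no such transcript in the annotation, Ifit1, Ifit2, Ifit3, Isg15 and Rsad2, enter this share with 0, so it describes the annotation as well as the RNA. The counts of transcripts that retain an unannotated intron are not in these tables. Rsad2, which holds many of the counts, had 91.9% and 84.5% of them in its coding transcript Rsad2-201. The rest, 8.06% and 15.5%, fell on Rsad2-202, annotated for nonsense-mediated decay, and the alignment-free tables gave that transcript 32.3% and 32.1%. The division of Rsad2 between these 2 transcripts therefore depended on the quantification more than on the library.

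**Figure D3:**
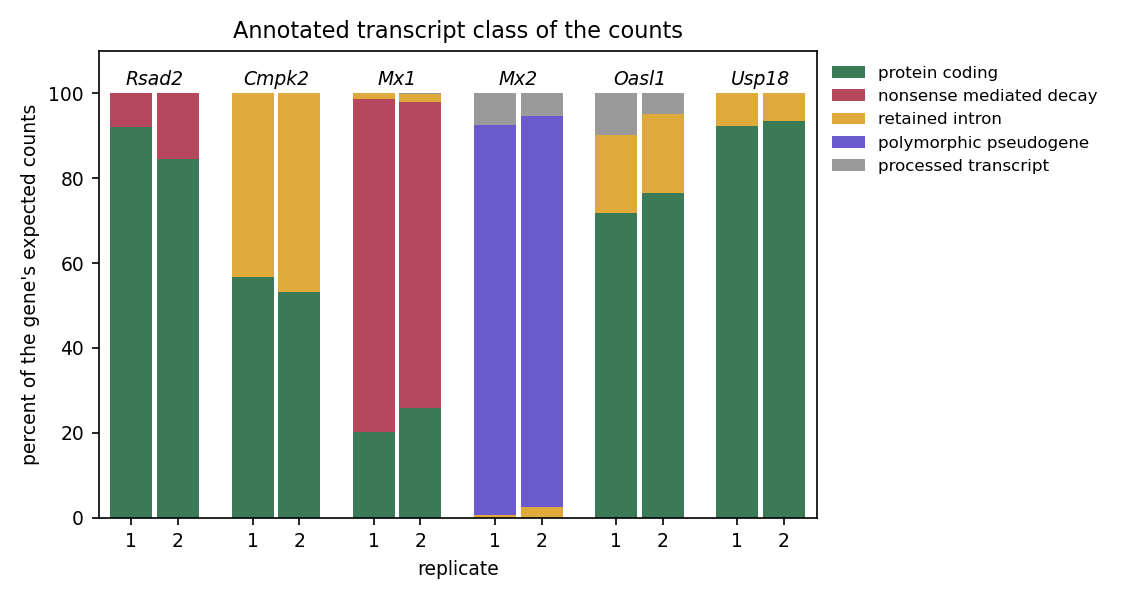
Share of each gene's expected counts by annotated transcript class, as stacked bars that sum to 100 percent, for 6 genes with several transcripts and each replicate. Cmpk2 shows 43.3% and 46.7% in retained-intron transcripts, Mx1 mostly transcripts annotated for nonsense-mediated decay, and Mx2 mostly polymorphic-pseudogene transcripts.

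Counts fell on several transcripts in 6 of the 10 genes: Rsad2, Cmpk2, Mx1, Mx2, Oasl1 and Usp18. The leading transcript by TPM was the same in both libraries for all 6. Usp18-201 held 73.0% and 75.1% of the TPM of Usp18, and Cmpk2-201 held 55.1% and 53.1% of that of Cmpk2. For Oasl1 the leading transcript was the retained-intron Oasl1-204, with 35.4% and 38.0% of TPM. It is 800 bases long and held only 18.5% and 18.4% of the counts, since TPM divides by length. By counts Oasl1-201 led in replicate 1 and Oasl1-202 in replicate 2, so the leading coding transcript of Oasl1 was not settled. The alignment-free tables gave 1 leading transcript in both libraries for 5 of the 6, Cmpk2 being the exception. In both kinds of table and both libraries 4 of the 6 kept the same one, all but Cmpk2 and Mx1.

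Beside the other genes of the interferon system, the 10 genes lay at a middle level while the interferons themselves were at or near 0. None of 19 interferon genes reached 1 TPM in both libraries. Of these, 10 had 0 counts in both libraries of the gene tables and 15 had at most 3. Ifnb1, which encodes interferon-β, had 1 and 3 counts, or 0.14 and 0.23 TPM. In the gene tables the highest was Ifnk, with 13 and 10 counts and 1.61 and 0.70 TPM. Counts of 4, 4 and 8 for Ifna5, Ifna14 and Ifna2 in replicate 1 stood against 0 in replicate 2. Also in the alignment-free tables none reached 1 TPM in both libraries, while 6 had 0 counts in both and 12 at most 3. There Ifna16 was the highest, with 48 and 42 counts and 1.33 and 0.348 TPM, against 1 and 0 counts in the gene tables.

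The genes that receive interferon were all present, with 10 of 10 at 5 TPM or more and a median log2(TPM + 1) of 5.52 ± 0.167. The receptor chains Ifnar1 and Ifnar2 were at 73.4 and 51.9 TPM and at 63.4 and 52.4 TPM. Of the transcription factors, Stat2 was at 97.7 and 79.5 TPM and Irf9 at 24.4 and 19.8. In each library Stat2 thus lay between Mx1 and Rsad2, and Irf9 lay below Mx2. Along the route from TLR4 to interferon, 10 of 10 genes were at 1 TPM or more. The receptor partner Cd14 was at 478 and 387 TPM, the kinase genes Ikbke at 172 and 198 and Tbk1 at 89.8 and 57.1, and Irf3 at 79.0 and 105. The adaptor gene Ticam1, which encodes TRIF, was the lowest of this list at 6.16 and 4.75 TPM, and Irf7 was at 47.3 and 49.4.

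Of 39 other antiviral effectors, 38 were at 1 TPM or more in both libraries, and the median was 4.94 ± 0.187. The 4 highest by mean were Samhd1 (175 and 123 TPM), which depletes nucleotides, Parp14 (146 and 137), Oas2 (164 and 93.2), which makes the activator of RNase L, and Gbp5 (62.8 and 111), a guanylate-binding protein. Ifi44l had 0 counts in both libraries. All 12 nucleic acid sensors were at 1 TPM or more, from Cgas (4.42 and 4.13 TPM), which senses DNA, to Ifi204 (156 and 137). Ddx58, which encodes the RNA sensor RIG-I, was at 51.4 and 44.4.

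In the gene tables the median log2 level of the 10 genes was 0.91 ± 0.348 below that of the receptor and signalling genes. It was 0.09 ± 0.0337 above that of the sensors there. In the alignment-free tables the medians were 3.49 for the 10 genes and 4.15 for the sensors, so that order was reversed. Against the other antiviral effectors the median of the 10 genes lay 0.58 below in replicate 1 and 0.06 below in replicate 2. By CPM the medians were 5.848 for the 10 genes and 5.805 for these effectors, the reverse order. Against all 99 other genes of these interferon lists pooled, the difference was -0.15 in replicate 1 and 0.36 in replicate 2, so it had no stable sign. The early lipid A genes, among them Tnf (558 and 625 TPM) and Cxcl2 (607 and 693), had a median of 8.90 ± 0.066. The 10 antiviral genes lay 4.29 ± 0.115 below these on the log2 scale. The early lipid A list was chosen with earlier results of these data known, so the size of the gap depends on that choice. The SD covers the spread between the libraries and not the choice of genes.

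**Figure D4:**
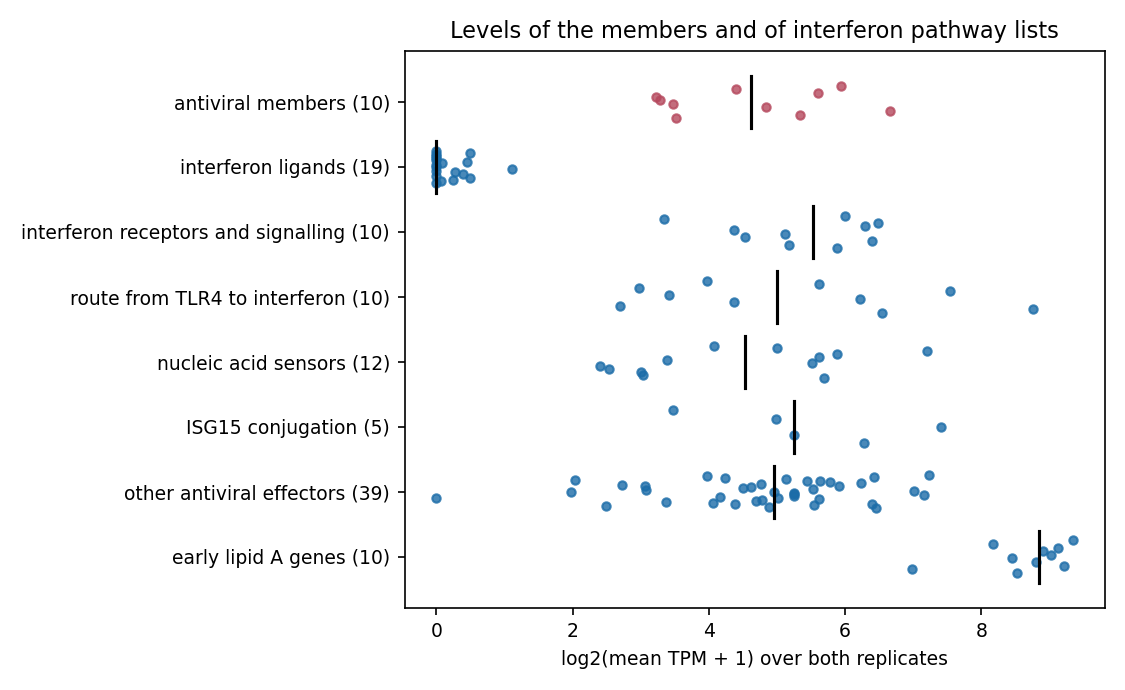
Levels as log2(mean TPM + 1) over both replicates for the 10 antiviral genes (top row) and 7 other lists, each point 1 gene and each bar the list's median. The vertical spread of points within a row carries no value. The antiviral genes lie within the range of the sensor and effector genes, the interferons lie at or near 0, and the 10 early lipid A genes lie above all of the antiviral genes.

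The difference between the libraries was given as the log2 ratio of TPM + 1 in replicate 2 over replicate 1, minus the median of -0.42 over all 14579 genes with at least 10 counts in both. None of the 10 genes differed by more than 2-fold in either direction. Among all countable genes, replicate 2 exceeded replicate 1 by over 2-fold for 1.22% and fell below it by over 2-fold for 0.487%. Of all countable genes 50.0% had ratios above 0, a share that subtracting their own median fixes in advance. Of the 79 countable genes among the 99 other interferon genes, 56 had ratios above 0. Of the 10 antiviral genes, 7 had ratios above 0, and their median was 0.23. The highest were Isg15 at 0.71 (counting SE 0.209), Cmpk2 at 0.70 (0.0655) and Mx2 at 0.65 (0.0739). The lowest were Oasl1 at -0.11 (0.142) and Usp18 at -0.09 (0.147). The counting SE covers counting error only and is wider for the genes with few counts, so the value for Isg15 is the least certain of these. In the alignment-free tables, minus their own median of -1.19, the ratios of 5 of the 10 were above 0 and 6 had the same sign as in the gene tables. Cmpk2 was highest there, at 0.42, and Isg15 was at 0.20, while Rsad2, Ifit2 and Ifit3 went from 0.29, 0.18 and 0.15 to -0.15, -0.21 and -0.22. The early lipid A genes had a median ratio of 0.57 in the gene tables, with 9 of 10 above 0. In the alignment-free tables only Tnf, Nfkbia, Ier3 and Il1b of that list were above 0, from 0.15 to 0.18. The other early lipid A genes were below 0 there, from -1.02 for Fos to -0.0062 for Cxcl2. RNA input and depth differed between these same libraries, and their part in the ratios cannot be told apart.

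**Figure D5:**
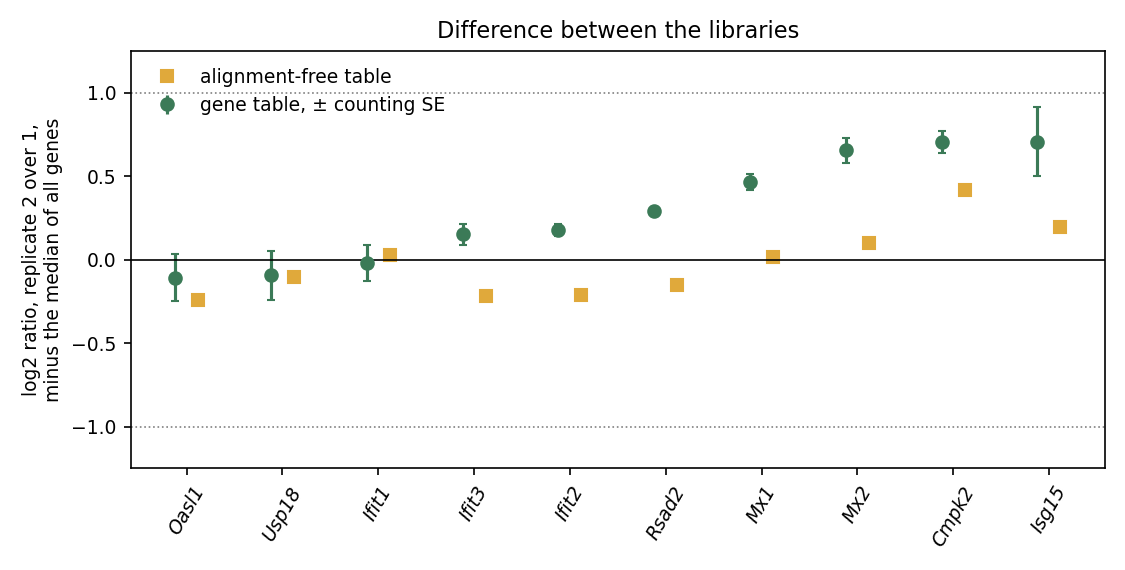
Log2 ratio of replicate 2 over replicate 1 for the 10 genes, minus the median of all genes of the same table, with circles and bars of 1 counting SE for the gene tables and squares for the alignment-free tables. Dotted lines mark 2-fold. No gene passes them, and the ratios of Rsad2, Ifit2 and Ifit3 are above 0 in the gene tables and below it in the alignment-free tables.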

How the data were processed

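Per the deposited readme, the authors aligned the reads to the transcriptome (mm10, GENCODE M21) and derived from that the expected counts and TPM of the gene tables and the first transcript tables. Those deposited transcript tables also give each transcript's percent of its gene's TPM. The alignment-free tables hold estimated counts and TPM that the authors made from the reads and an index, per the same readme, and were summed per gene. The bounds of the quantifier's TPM interval, as deposited, were also used. The level of that interval, the quantifiers' names and any use of strand in counting are not given in the sources at hand, while the headers carry the column names of RSEM and kallisto output.

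Rows outside the annotation were kept out of totals (0.451% and 0.177% of counts in replicates 1 and 2, phiX being 0.350% and 0.0784%). TPM was used as deposited. CPM is the expected count per 1000000 counts on annotated genes. Log2 levels used TPM + 1. Ratios used genes with at least 10 expected counts in both libraries and were checked on simulated data. Coding identity came from global alignment of GENCODE coding sequences.

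With 1 group of 2 libraries no test between groups and no p-value was computed. The 10 genes, the pathway and marker lists and the rule for named genes (all members and relatives, of each other list the 4 highest and 2 lowest, and 8 pathway genes) were chosen with earlier results of these data known, and some named genes are left out of the text. Alternatives were another pseudocount, CPM, other minimums, the posterior mean TPM, the alignment-free tables, TPM rescaled after mitochondrial and short genes (under 200 bases) were left out, leaving out 1 library, and scaling by TMM or DESeq2. For these factors expected counts were rounded. Floors and counting errors leave out duplicated molecules, since the libraries are not stated to carry molecular identifiers. Tools were Python 3.11.15, pandas 2.3.3, numpy 2.4.6, Biopython 1.88, matplotlib 3.10.9, R 4.3.3, edgeR 4.0.16 and DESeq2 1.42.0.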

Additional observations from a re-analysis of the deposited data

How the results depend on the processing

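All 10 genes stayed at 1 TPM or more in both libraries in the alignment-free tables, after rescaling and in each library alone, and at 5 TPM and at 10 counts. Shares of all genes past a TPM minimum were given above for the gene tables only. The median log2 level of the 10 genes (4.61) was 5.85 by CPM, 3.49 in the alignment-free tables and 5.12 without mitochondrial genes and genes under 200 bases. That of the other interferon lists (4.51) was 5.51 by CPM, 3.37 in the alignment-free tables and 5.01 without those genes. Leaving out replicate 1 gave 4.74 for the 10 genes and 4.38 for the other lists, and leaving out replicate 2 gave 4.48 and 4.63, so these medians moved in opposite directions and their order changed. Of the 9 neighbouring pairs, 1 was separated in the alignment-free tables, whose TPM was lower in replicate 2 for each of the 10 genes. The median ratio between the libraries (0.23) was 0.38 with TMM, 0.43 with DESeq2 factors and -0.046 in the alignment-free tables. It was -0.19 when not centred and -0.19 with no minimum count, where the centring, which is the same for all genes, falls away. The retained-intron share (3.77% of counts) was 8.38% of TPM and from 3.13% to 4.40% in the libraries alone. No paired analysis was possible because the libraries form 1 group. Depth limits Isg15, Usp18 and Oasl1 most, with 69 to 236 counts each.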

Other observations

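Of the 38 other antiviral effectors with at least 10 counts in both libraries (Ifi44l had 0), 3 were over 2-fold higher in replicate 2 than in replicate 1 in the gene tables relative to all genes, against 1.22% of 14579 genes. None was over 2-fold lower, against 0.487%. They were Gbp5 (62.8 and 111 TPM, log2 ratio 1.24), Bst2 (19.5 and 33.6 TPM, 1.18) and Gbp2 (13.5 and 22.3 TPM, 1.11), of which Bst2 and Gbp2 were named after their values were seen. Gbp2 and Gbp5 encode guanylate-binding proteins and Bst2 encodes tetherin, which holds budding virions at the cell surface. In the alignment-free tables the ratios were 0.65, 0.22 and 0.55, and none passed 2-fold.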
